A study of Homo sapiens with 9 samples.

Results

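DUSP1, DUSP4, DUSP5, DUSP6, DUSP10, SPRY1, SPRY2, SPRY4, SPRED1 and SPRED2 were followed in cells labelled Weri-RB1/CRP, a carboplatin-resistant retinoblastoma line. They were listed as genes of the negative feedback on the kinase ERK. DUSP10 is on this list although it encodes a phosphatase of the stress kinases JNK and p38 with little action on ERK. The genes were chosen by symbol. All 10 were found among 27407 features of the table, and all 10 passed the filter on low counts. RNA sequencing libraries had been made from 3 samples each of cells carrying the hairpin shSNHG1#1, cells carrying the hairpin shSNHG1#2 and cells carrying the control hairpin shNC, and every group shared the line and the medium, RPMI with fetal bovine serum. Both shSNHG1 hairpins were designed to lower the long noncoding RNA SNHG1. No group is labelled as exposed to carboplatin, as parental or as clonal. The level of SNHG1 is not analysed here, which leaves the knockdown unchecked, and groups follow the labels. The labels do not state whether libraries of a group were grown separately, and p-values therefore cover only spread among these libraries, possibly technical.

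Growth factor receptors switch on RAS, and RAS starts a relay of RAF, MEK and ERK kinases. ERK enters the nucleus and induces, among others, genes whose products switch the relay off again. The DUSP members encode dual-specificity phosphatases that remove phosphate from MAP kinases, and the Sprouty and SPRED members encode membrane-associated inhibitors that act near RAS and RAF. In the developing eye, ERK signalling downstream of fibroblast growth factors takes part in patterning the neural retina and the lens.

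The libraries held 21502093 to 21606498 estimated counts, so depth was nearly equal. Of 10 photoreceptor markers, 9 were in the table and all 9 were below 1 FPKM (fragments per kilobase of transcript and per library size) in every library. CRX did not exceed 0.03 FPKM and RCVRN did not exceed 0.09 FPKM. The epithelial keratin transcripts KRT8 (745 to 790.2 FPKM over the 9 libraries) and KRT18 (684 to 764 FPKM) were abundant. The other epithelial markers were mixed. KRT19 (36.28 to 61.31 FPKM) and CDH1 (21.74 to 27.54 FPKM) were expressed in every library. Their mean levels were highest in shNC (59.77 FPKM for KRT19 and 27.4 FPKM for CDH1). EPCAM (1.56 to 3.56 FPKM) and CLDN4 (3.56 to 8.69 FPKM) were lower, and both were highest with the shSNHG1 hairpins. Of the markers of retinal neurons and glia, TUBB3 (45.67 to 55.09 FPKM) and RLBP1 (1.55 to 6.73 FPKM) were expressed in every library. The defining photoreceptor markers of the labelled tissue were thus near 0. Summed over 5 mesenchymal markers, levels ran from 461 to 497 FPKM with shSNHG1#1 and 467 to 484 FPKM with shSNHG1#2, against 715 to 726 FPKM in shNC, nearly all of it VIM. Summed over 4 leukocyte markers they were 83.7 to 90.8 FPKM with shSNHG1#1 and 121 to 124 FPKM with shSNHG1#2, against 268 to 286 FPKM in shNC, nearly all of it CD68, and the defining marker PTPRC stayed at or below 0.42 FPKM. The shSNHG1#1 replicate 1 library stood apart in LUM (3.92 FPKM, against 0 to 0.22 FPKM in the other libraries) and COL1A2 (1.56 FPKM, against 0.01 to 0.11 FPKM). The part of these marker differences in the results was not tested, and values without that library are given where they matter. In bulk RNA, fewer cells of a type and less RNA per cell cannot be told apart.

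Promoter windows of 250 bases before the transcription start were available for 8 members from RefSeq (GRCh38.p14). DUSP4 and DUSP5 had no window and could not be searched. The windows of DUSP1, the member that fell most, and of DUSP6 and SPRY4, the members that rose with both hairpins, are shown 5′ to 3′ on the gene's strand, with TGACG, the core of the cAMP response element, in capitals on either strand. DUSP1 lies at chr5:172771196-172771445 on the minus strand, DUSP6 at chr12:89352502-89352751 on the minus strand and SPRY4 at chr5:142324248-142324497 on the minus strand.
DUSP1: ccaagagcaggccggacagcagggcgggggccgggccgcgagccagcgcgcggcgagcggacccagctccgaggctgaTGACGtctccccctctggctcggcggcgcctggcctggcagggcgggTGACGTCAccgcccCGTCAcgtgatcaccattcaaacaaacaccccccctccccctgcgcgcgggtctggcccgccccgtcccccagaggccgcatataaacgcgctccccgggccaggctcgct
DUSP6: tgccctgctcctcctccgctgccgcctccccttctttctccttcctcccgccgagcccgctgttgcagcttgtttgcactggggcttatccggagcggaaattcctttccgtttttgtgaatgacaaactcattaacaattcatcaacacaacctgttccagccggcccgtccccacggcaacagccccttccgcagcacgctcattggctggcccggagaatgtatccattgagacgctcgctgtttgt
SPRY4: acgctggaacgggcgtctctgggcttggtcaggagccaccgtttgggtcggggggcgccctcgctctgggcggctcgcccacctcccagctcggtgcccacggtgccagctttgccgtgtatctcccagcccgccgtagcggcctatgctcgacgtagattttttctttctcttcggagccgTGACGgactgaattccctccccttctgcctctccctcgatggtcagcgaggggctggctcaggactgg

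Searched on both strands, the DUSP1 window held the full element TGACGTCA, 125 to 118 bases before the start. No other member window held it, and 1.65% of all 35116 windows of this length did. The DUSP1 window had 4 matches to TGACG, of which 2 are the overlapping arms of the full element. The SPRY4 window had 1, as did a window of SPRY2 (190 to 186 bases before the start), where 21.2% of all windows held at least 1. One of the DUSP1 matches overlaps a CACGTG, a sequence held by 6.34% of windows, and that CACGTG contains ACGTG on either strand (18.5% of windows). The DUSP1 window also had 4 matches to GGGCGG and the SPRY4 window 1, a sequence held by 42.6% of windows. The DUSP6 window had no match to any of these, to TGANTCA, to CCGGAAG or to the CArG box. Of all windows, 6.57% held TGANTCA, 8.52% held CCGGAAG and 1.16% held the CArG box. Among the members, CCGGAAG was found only in a window of SPRY1, 67 to 61 bases before the start. Such matches describe letters only.

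Among 18767 tested features, 47.8% passed the threshold (adjusted p below 0.05, edgeR's quasi-likelihood test) with shSNHG1#1 against shNC, 24.4% higher and 23.4% lower. With shSNHG1#2 against shNC 46.1% passed, 23.3% higher and 22.8% lower. Of the calls with shSNHG1#2, 50.6% were thus higher, against 61.1% when counts were scaled by library totals alone. Of the 10 feedback genes, 9 passed with shSNHG1#1 (3 higher, 6 lower) and 8 with shSNHG1#2 (2 higher, 6 lower). DUSP1, DUSP4, DUSP5, DUSP10, SPRY1 and SPRED1 were lower with both hairpins, DUSP6 and SPRY4 higher with both, SPRED2 higher with shSNHG1#1, and SPRY2 passed with neither. The median log2 fold change of the 10 genes was -0.25 with shSNHG1#1 and -0.17 with shSNHG1#2, beside 0.02 and 0.01 over all tested features. At least 2-fold changes that passed were seen for 2 members with each hairpin, where 6.0% and 5.17% of all features showed them. Libraries of the groups did not overlap in scaled CPM (counts relative to library size) for 9 members with shSNHG1#1 and 8 with shSNHG1#2, where 56.3% and 55.8% of all features did not. Both contrasts use the same 3 shNC libraries, so they are not independent of each other.

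**Figure D1:**
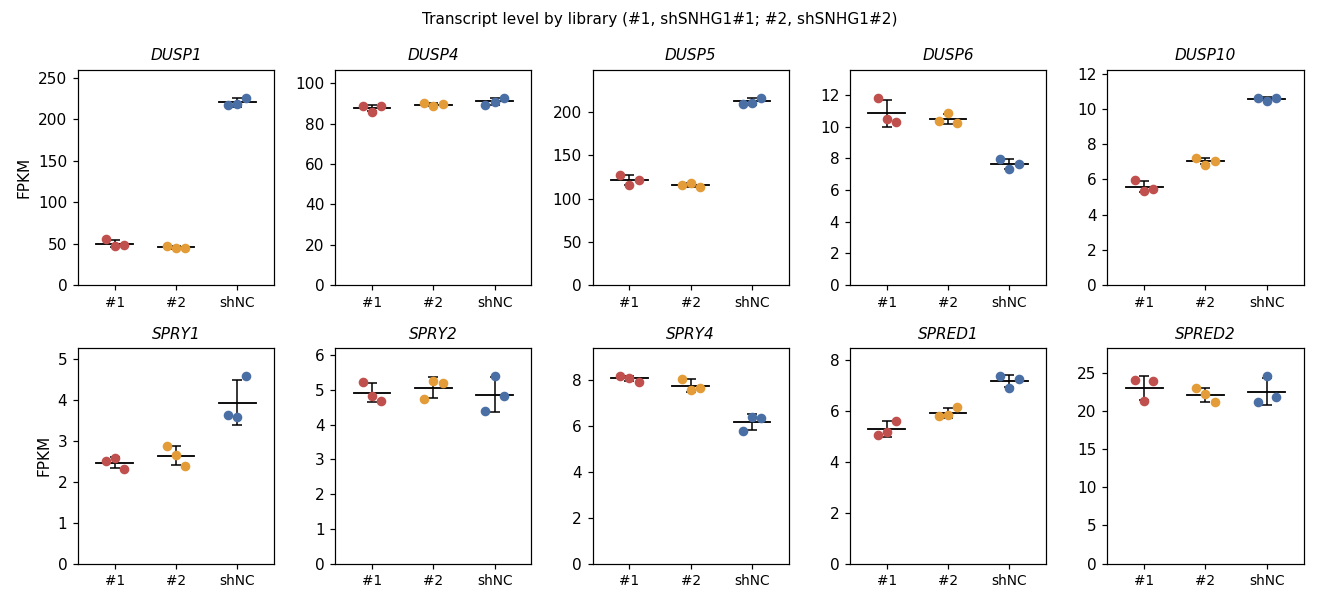
Transcript level (FPKM) of each feedback gene in every library, with points for libraries, a line for the mean and bars for the SD (n = 3 per group). DUSP1, DUSP5 and DUSP10 lie far lower with both shSNHG1 hairpins than in shNC, DUSP6 and SPRY4 lie higher, and SPRY2 overlaps.

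The nuclear phosphatases, products of genes that growth factors and stress induce, differed widely in how far they moved. DUSP1, which acts on p38 and JNK as well as ERK, had 55.24, 46.72 and 48.36 FPKM with shSNHG1#1 and 47.19, 44.79 and 44.44 FPKM with shSNHG1#2, against 216.55, 218.13 and 225.81 FPKM in shNC. All 6 hairpin libraries lay far below every shNC library, and shSNHG1#1 replicate 1, the library that stood apart in LUM and COL1A2, was the highest of its group. DUSP1 fell 4.42-fold with shSNHG1#1 (log2 fold change -2.14, SE 0.05, 95% interval -2.26 to -2.03, edgeR adjusted p = 4.25e-11) and 4.98-fold with shSNHG1#2 (-2.32, SE 0.05, -2.43 to -2.20, adjusted p = 2.82e-11). Without shSNHG1#1 replicate 1, the log2 fold change with shSNHG1#1 was -2.23.

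DUSP5, a nuclear phosphatase selective for ERK, had 126.88, 116.16 and 121.85 FPKM with shSNHG1#1 and 115.61, 117.64 and 113.13 FPKM with shSNHG1#2, against 209.72, 210.66 and 216.45 FPKM in shNC. The groups with a shSNHG1 hairpin lay wholly below shNC. DUSP5 fell 1.87-fold with shSNHG1#1 (log2 fold change -0.90, SE 0.03, edgeR adjusted p = 3.17e-10) and 2.02-fold with shSNHG1#2 (-1.01, SE 0.03, adjusted p = 1.42e-10).

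DUSP4, a nuclear phosphatase of ERK and JNK, had 88.61, 85.94 and 88.80 FPKM with shSNHG1#1 and 89.97, 88.66 and 89.58 FPKM with shSNHG1#2, against 89.22, 90.90 and 92.77 FPKM in shNC. The shSNHG1#1 libraries lay just below all shNC libraries, and those of shSNHG1#2 overlapped shNC. On scaled counts DUSP4 was 1.07-fold lower with each hairpin (log2 fold change -0.10, edgeR adjusted p = 0.00551 with shSNHG1#1, and -0.09, adjusted p = 0.0109 with shSNHG1#2). Neither call held when counts were scaled by library totals alone (adjusted p = 0.108 with shSNHG1#1 and 0.454 with shSNHG1#2) or when log2 FPKM values were tested with limma, and the call with shSNHG1#2 was lost without its replicate 2 (adjusted p = 0.0525). The interval of the log2 difference reached no further than -0.16 with shSNHG1#1 and -0.15 with shSNHG1#2.

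DUSP6, the cytoplasmic phosphatase that binds and inactivates ERK, went the other way. It had 11.81, 10.46 and 10.26 FPKM with shSNHG1#1 and 10.33, 10.84 and 10.22 FPKM with shSNHG1#2, against 7.93, 7.35 and 7.63 FPKM in shNC, and no hairpin library overlapped shNC. DUSP6 rose 1.38-fold with shSNHG1#1 (log2 fold change 0.47, SE 0.06, edgeR adjusted p = 3.05e-05) and 1.31-fold with shSNHG1#2 (0.39, SE 0.06, adjusted p = 0.000152). The highest DUSP6 level was in shSNHG1#1 replicate 1, and without that library the log2 fold change with shSNHG1#1 was 0.40. Its relative DUSP7, also cytoplasmic and directed at ERK, rose by 0.51 and 0.46 on the log2 scale with shSNHG1#1 and shSNHG1#2 (edgeR adjusted p = 0.000502 and 0.00118). DUSP9, another relative and chosen after its values were seen, passed with neither hairpin. Its log2 fold change was 0.08 with shSNHG1#1 and 0.12 with shSNHG1#2 (edgeR adjusted p = 0.826 and 0.737).

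DUSP10, a phosphatase of the stress kinases JNK and p38 with little action on ERK, had 5.97, 5.35 and 5.46 FPKM with shSNHG1#1 and 7.19, 6.84 and 7.05 FPKM with shSNHG1#2, against 10.59, 10.47 and 10.63 FPKM in shNC. The 3 groups did not overlap one another. DUSP10 fell 2.13-fold with shSNHG1#1 (log2 fold change -1.09, SE 0.06, edgeR adjusted p = 9.19e-09) and 1.70-fold with shSNHG1#2 (-0.77, SE 0.06, adjusted p = 2.54e-07). DUSP16, another phosphatase of JNK and p38, fell by 0.40 and 0.21 on the log2 scale with shSNHG1#1 and shSNHG1#2 (adjusted p = 3.37e-07 and 0.000107).

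**Figure D2:**
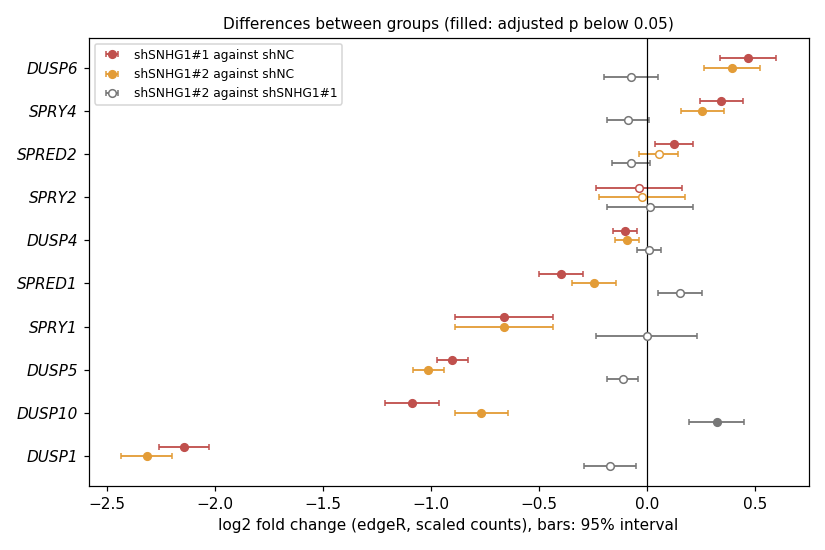
Log2 fold change of each feedback gene from scaled counts in edgeR, with 95% intervals, for shSNHG1#1 against shNC, shSNHG1#2 against shNC and shSNHG1#2 against shSNHG1#1. Filled points have an adjusted p below 0.05, and between the hairpins only DUSP10 is filled.

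The make-up of the phosphatase transcripts shifted with these changes. The summed level of DUSP1, DUSP2, DUSP4 and DUSP5 was 259.7 ± 11.04 FPKM with shSNHG1#1 and 250.4 ± 2.88 FPKM with shSNHG1#2, against 523 ± 10.3 FPKM in shNC (SD, n = 3 each). DUSP6, DUSP7 and DUSP9 together had 14.4 ± 0.994 and 13.97 ± 0.222 FPKM with shSNHG1#1 and shSNHG1#2, against 10.2 ± 0.466 FPKM in shNC. DUSP8, DUSP10 and DUSP16 together had 36.7 ± 0.947 FPKM with shSNHG1#1 and 42.4 ± 0.995 FPKM with shSNHG1#2, against 51.1 ± 0.502 FPKM in shNC. DUSP1 made up 16.1 ± 0.902% of the FPKM of these 10 phosphatase genes with shSNHG1#1 and 14.8 ± 0.415% with shSNHG1#2, against 37.6 ± 0.175% in shNC. DUSP4, whose own level moved little, made up 28.3 ± 0.658% with shSNHG1#1 and 29.1 ± 0.273% with shSNHG1#2, against 15.6 ± 0.0850% in shNC. The level of DUSP1 was 4.62 ± 0.133 times that of DUSP6 with shSNHG1#1 and 4.35 ± 0.218 times with shSNHG1#2, against 28.9 ± 1.35 times in shNC. These sums and ratios are descriptions with no test.

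**Figure D3:**
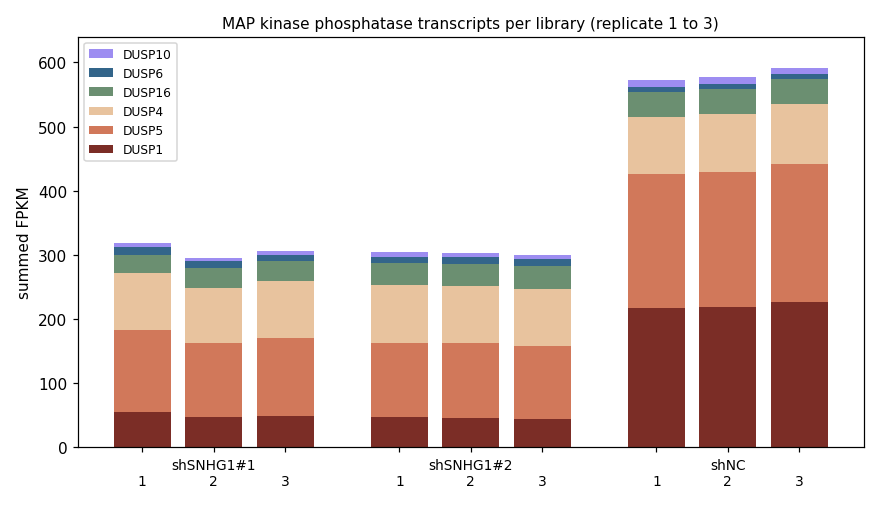
Stacked FPKM of the 6 most abundant MAP kinase phosphatase transcripts in each library, in the order shSNHG1#1, shSNHG1#2 and shNC. The stacks are taller in the 3 shNC libraries, mainly through DUSP1 and DUSP5, while the DUSP4 layer keeps nearly the same height.

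The Sprouty genes did not move together. SPRY1 had 2.51, 2.57 and 2.32 FPKM with shSNHG1#1 and 2.86, 2.66 and 2.39 FPKM with shSNHG1#2, against 3.63, 3.59 and 4.58 FPKM in shNC. Every hairpin library lay below every shNC library, among which replicate 3 was the highest. SPRY1 fell 1.58-fold with each hairpin (log2 fold change -0.66, SE 0.10 each, edgeR adjusted p = 0.000176 with shSNHG1#1 and 0.000191 with shSNHG1#2), on 140 to 264 estimated counts per library, the fewest of the 10 genes on average.

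SPRY4 had 8.19, 8.12 and 7.95 FPKM with shSNHG1#1 and 8.08, 7.56 and 7.68 FPKM with shSNHG1#2, against 5.77, 6.41 and 6.38 FPKM in shNC. The shNC libraries were the 3 lowest. SPRY4 rose 1.27-fold with shSNHG1#1 (log2 fold change 0.34, SE 0.05, edgeR adjusted p = 4.7e-05) and 1.19-fold with shSNHG1#2 (0.26, SE 0.05, adjusted p = 0.000578). The level of SPRY4 was 3.28 ± 0.135 times that of SPRY1 with shSNHG1#1 and 2.96 ± 0.219 times with shSNHG1#2, against 1.59 ± 0.196 times in shNC (SD, n = 3 each).

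SPRY2 had 5.24, 4.84 and 4.69 FPKM with shSNHG1#1 and 4.73, 5.27 and 5.21 FPKM with shSNHG1#2, against 4.38, 5.40 and 4.82 FPKM in shNC. The 3 groups overlapped. Its log2 difference from shNC was -0.04 with shSNHG1#1 (95% interval -0.23 to 0.16, edgeR adjusted p = 0.778) and -0.02 with shSNHG1#2 (-0.22 to 0.17, adjusted p = 0.859), and the sign turned positive under library totals alone.

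Of the SPRED genes, whose products bring the RAS inhibitor neurofibromin to the membrane, SPRED1 had 5.04, 5.19 and 5.62 FPKM with shSNHG1#1 and 5.79, 5.83 and 6.15 FPKM with shSNHG1#2, against 7.37, 6.89 and 7.26 FPKM in shNC. The 3 groups did not overlap. SPRED1 fell 1.32-fold with shSNHG1#1 (log2 fold change -0.40, SE 0.05, edgeR adjusted p = 1.39e-05) and 1.19-fold with shSNHG1#2 (-0.25, SE 0.05, adjusted p = 0.000785). SPRED2 had 24.00, 21.24 and 23.94 FPKM with shSNHG1#1 and 22.96, 22.16 and 21.18 FPKM with shSNHG1#2, against 21.23, 24.57 and 21.80 FPKM in shNC, and these groups overlapped.

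On scaled counts SPRED2 was 1.09-fold higher with shSNHG1#1 (log2 fold change 0.13, edgeR adjusted p = 0.0205), and its difference with shSNHG1#2 was 0.05 (95% interval -0.03 to 0.14, adjusted p = 0.318). On log2(FPKM + 1) in limma the call with shSNHG1#1 was lost (adjusted p = 0.729), as it was without shSNHG1#1 replicate 1 (0.0654), shSNHG1#1 replicate 3 (0.114), shNC replicate 1 (0.116) or shNC replicate 3 (0.110). The transcript length implied by counts and FPKM together was 3445 to 3754 bases with shSNHG1#1 and 3450 to 3772 bases with shSNHG1#2, against 3143 to 3320 bases in shNC. For DUSP1 it was 2093 to 2103 bases with shSNHG1#1 and 2074 to 2082 bases with shSNHG1#2, against 2041 to 2045 bases in shNC. For SPRED1, DUSP5 and DUSP10 the implied lengths of both hairpin groups also lay outside those of shNC, so the count and FPKM differences of these genes are not of the same size. NF1, which encodes neurofibromin and was chosen after its values were seen, fell by 0.31 on the log2 scale with each hairpin, and SPRED3 rose by 0.58 and 0.42 with shSNHG1#1 and shSNHG1#2.

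In order of FPKM, DUSP5, DUSP4 and DUSP1 led with both shSNHG1 hairpins, followed by SPRED2, DUSP6, SPRY4, DUSP10, SPRED1, SPRY2 and SPRY1. In shNC the order was DUSP1, DUSP5, DUSP4, SPRED2, DUSP10, DUSP6, SPRED1, SPRY4, SPRY2 and SPRY1. The libraries of neighbours in these orders overlapped for DUSP10 with SPRED1 and SPRED1 with SPRY2 in shSNHG1#1, for none in shSNHG1#2, and for DUSP6 with SPRED1 and SPRY2 with SPRY1 in shNC. In shNC the level of DUSP1 exceeded that of 98.6% of tested features, and in shSNHG1#1 and shSNHG1#2 it exceeded 93.5% and 92.6%.

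Set against each other, the hairpins differed in 1 of the 10 genes, where 3.12% of all features passed (2.03% higher with shSNHG1#2, 1.09% lower). Of those calls 65.0% were higher, against 77.0% under library totals alone and 77.8% on log2(FPKM + 1) in limma. DUSP10 was 1.25-fold higher with shSNHG1#2 than with shSNHG1#1 (log2 fold change 0.32, SE 0.06, 95% interval 0.19 to 0.45, edgeR adjusted p = 0.00944), with all 3 shSNHG1#2 libraries above all 3 of shSNHG1#1. For DUSP1 the difference was -0.17 (95% interval -0.29 to -0.05, adjusted p = 0.145), and it was -0.10 without shSNHG1#1 replicate 1. For DUSP5 it was -0.11 (-0.18 to -0.04, adjusted p = 0.104) and for SPRED1 0.15 (0.05 to 0.26, adjusted p = 0.118). DUSP1 and DUSP5 passed with DESeq2's Wald test (adjusted p = 0.0132 and 0.0112). Scaled CPM did not overlap between the hairpins for 6 members, where 20.8% of all features did not.

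Other genes of the pathway were counted in lists, each gene tested in the fit over all features. A gene was counted as risen or fallen only if it passed the threshold. Of all tested features, 24.4% passed as higher and 23.4% as lower with shSNHG1#1, and 23.3% and 22.8% with shSNHG1#2. The lists share some genes, and the named ones, unless marked, are those with the smallest p over both hairpins. Scaling by library totals alone shifts the median of all features to 0.07 with shSNHG1#1 and 0.08 with shSNHG1#2, so list medians within 0.1 of 0 carry no direction. The list of other brakes on receptor and RAS signalling held 19 genes. Of these, 4 rose and 9 fell with shSNHG1#1, and 2 rose and 9 fell with shSNHG1#2 (median log2 fold change -0.17 and -0.18). ERRFI1, an inhibitor of the EGF receptor, had 94.8 ± 2.61 FPKM with shSNHG1#1 and 110.1 ± 3.24 FPKM with shSNHG1#2, against 405 ± 5.62 FPKM in shNC (SD, n = 3 each), 4.57-fold and 3.99-fold lower (edgeR adjusted p = 8.56e-14 and 2.07e-13). TRIB3, a pseudokinase gene, fell by 1.23 on the log2 scale with shSNHG1#1 and by 1.13 with shSNHG1#2, and PTPRJ, a receptor phosphatase gene, fell by 0.28 with shSNHG1#1 and by 0.32 with shSNHG1#2.

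Within the relay itself, 7 of 24 genes of the RAS to ERK cascade rose and 10 fell with shSNHG1#1, and 5 rose and 11 fell with shSNHG1#2 (medians -0.07 and -0.05). The kinase gene BRAF (log2 fold change -0.77 with shSNHG1#1 and -0.62 with shSNHG1#2) fell, and the adaptor gene GRB2 (0.31 and 0.25) rose. Among 17 genes of the p38 and JNK cascades, 12 rose and 5 fell with shSNHG1#1, and 10 rose and 4 fell with shSNHG1#2 (medians 0.24 and 0.16). MAPK9, a JNK gene (0.48 and 0.41), and MAPK12, a p38 gene (0.63 and 0.51), rose, whereas MAP2K7, which encodes an activator of JNK (-0.40 and -0.36), fell.

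At the level of receptors, 4 of 15 tested genes rose and 6 fell with shSNHG1#1, and 4 rose and 7 fell with shSNHG1#2 (medians -0.19 and -0.25). EGFR (log2 fold change -0.75 with shSNHG1#1 and -0.61 with shSNHG1#2), AXL (-0.89 and -0.62) and MET (-0.60 and -0.43) fell, while the receptor genes FGFR3 (0.77 and 0.70) and FGFR4 (0.70 and 0.60), chosen after their values were seen, rose. Their relatives FGFR1 and FGFR2, also chosen in that way, did not. FGFR2 was lower with shSNHG1#1 (-0.61, edgeR adjusted p = 0.0348) and at -0.25 with shSNHG1#2 (adjusted p = 0.377), and FGFR1 was at -0.07 with shSNHG1#1 (adjusted p = 0.139) and lower with shSNHG1#2 (-0.11, adjusted p = 0.0327). Leaving out 1 library ended each of these calls, with adjusted p up to 0.124 for FGFR2 with shSNHG1#1 and up to 0.0985 for FGFR1 with shSNHG1#2. Of 14 tested ligand genes, 4 rose and 6 fell with shSNHG1#1, and 3 rose and 5 fell with shSNHG1#2 (medians -0.06 and 0.09). FGF2 rose (1.03 and 0.99), and VEGFA (-1.48 and -1.09) and PDGFA (-0.86 and -0.53) fell.

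Genes used as outputs of ERK went both ways. Of 18, 8 rose and 6 fell with each hairpin, with medians of 0.09 and -0.04. PHLDA1 had 33.3 ± 0.785 FPKM with shSNHG1#1 and 35.4 ± 0.350 FPKM with shSNHG1#2, against 17.4 ± 0.642 FPKM in shNC, 1.85-fold and 1.94-fold higher (edgeR adjusted p = 3.28e-10 and 2.18e-10). MYC fell by 1.52 on the log2 scale with shSNHG1#1 and by 1.35 with shSNHG1#2, and LIF by 1.03 with each hairpin. Among genes chosen after their values were seen, the cyclin gene CCND1 rose by 0.62 with shSNHG1#1 and by 0.50 with shSNHG1#2, and the transcription factor genes ETV4 (0.19 and 0.21) and ETV5 (0.27 and 0.27) rose slightly. EGR1 (-2.70 with shSNHG1#1 and -2.87 with shSNHG1#2), FOSL1 (-1.08 and -0.95) and the receptor gene EPHA2 (-0.31 and -0.34), chosen in the same way, fell.

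Among 27 immediate early genes other than the 10, which stimulated cells transcribe without new protein synthesis, 2 were higher and 18 lower with shSNHG1#1, and 2 were higher and 19 lower with shSNHG1#2 (medians -1.08 and -1.14). PPP1R15A fell by 1.60 on the log2 scale with shSNHG1#1 and by 1.55 with shSNHG1#2, and KLF6 by 1.27 with shSNHG1#1 and by 1.17 with shSNHG1#2, while KLF4 (0.45 and 0.27) and BTG2 (0.64 and 0.60) rose. FOS, like KLF4 and BTG2 chosen with its values in view, had 23.69 FPKM in shSNHG1#1 replicate 1 but 5.77 and 5.27 FPKM in the other shSNHG1#1 libraries. Its call with shSNHG1#1 (log2 fold change -1.97, edgeR adjusted p = 0.023) was lost in 6 alternatives, among them those without each shNC replicate. Without shSNHG1#1 replicate 1 the log2 fold change was -3.06 and the call held. With shSNHG1#2, FOS had 6.28, 6.12 and 6.95 FPKM, against 43.98, 45.64 and 46.21 FPKM in shNC, and fell by 2.85 on the log2 scale (adjusted p = 0.00716), a call kept in all 18 alternatives. Of 13 glucocorticoid-responsive genes, 3 rose and 9 fell with each hairpin (medians -0.56 and -0.59). ANGPTL4 fell by 1.99 with shSNHG1#1 and by 1.89 with shSNHG1#2, and NR3C1, the glucocorticoid receptor gene, by 0.75 with shSNHG1#1 and by 0.59 with shSNHG1#2.

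**Figure D4:**
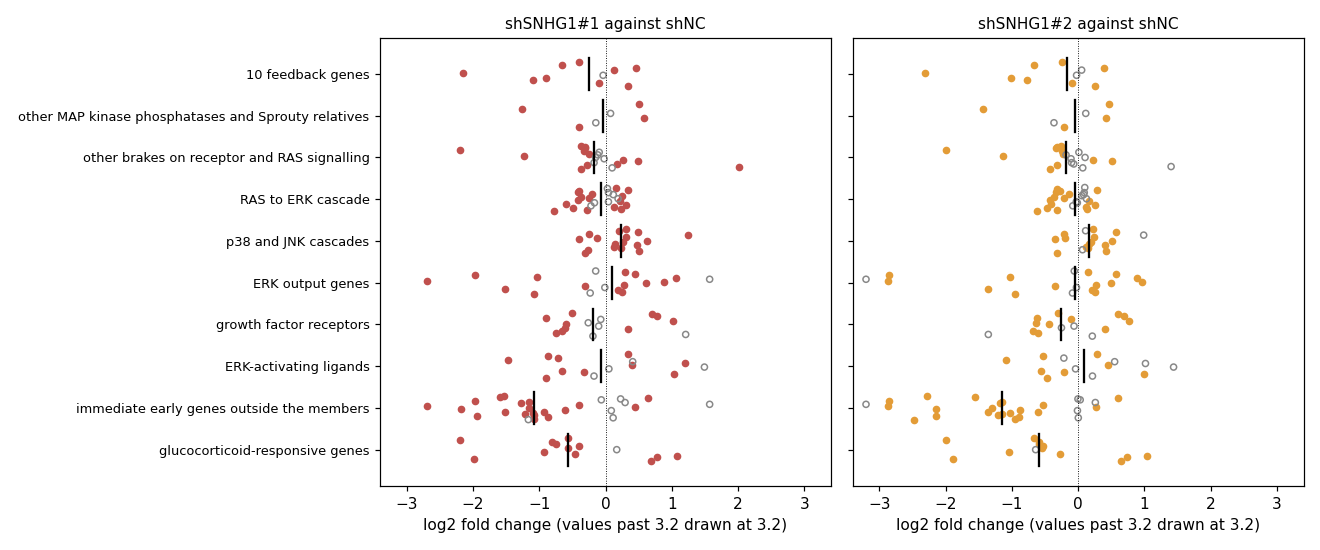
Log2 fold change of every tested gene of each list for shSNHG1#1 against shNC (left) and shSNHG1#2 against shNC (right), with filled points at an adjusted p below 0.05 and a bar at the median. The feedback genes spread to both sides of 0 around medians of -0.25 and -0.17, while immediate early genes centre at -1.08 and -1.14.

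The genes whose pattern over the 9 libraries lay closest to a member were sought among 12707 genes, by the root mean square difference of log2 CPM centred on each gene's mean. For DUSP1 these were PLIN2, which encodes a lipid droplet protein (difference 0.0933), JUN, an AP-1 transcription factor gene (0.111), and CYR61 (0.124). JUN had 22.1 ± 3.37 FPKM with shSNHG1#1 and 23.0 ± 0.696 FPKM with shSNHG1#2, against 97.0 ± 3.25 FPKM in shNC. For DUSP6 they were CCDC137 (0.0340), CHAF1A, a chromatin assembly factor gene (0.0380), and SLC22A18 (0.0397). For SPRY4 they were MYH10, a nonmuscle myosin gene (0.0272), SLC2A4RG (0.0288) and ACSL1, a fatty acid ligase gene (0.0305).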

How the data were processed

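RNA sequencing of 9 libraries was analysed, 3 for each hairpin. Per the file headers, each feature has an estimated count and an FPKM value in each library, as deposited by the authors. The submitters' processing notes name the tools RSEM 1.2.12, HISAT2 2.0.4, DESeq2 1.4.5 and Bowtie2 2.2.5, without roles. No source used here gives the genome build, annotation or strand use. Values of overlapping genes are therefore uncertain, and promoter coordinates are those of RefSeq GRCh38.p14. Of 27407 features, 3804 have no gene symbol. SNHG1 is not analysed here.

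Estimated counts, rounded to integers, entered the quasi-likelihood F test of edgeR 4.0.16 (R 4.3.3). TMM scaling was used, filterByExpr kept 18767 features, all 9 libraries entered the fit with group as the only term, and p-values were adjusted over all features by the Benjamini-Hochberg method (threshold 0.05). Standard errors came from the F statistic, and the biological coefficient of variation had a median of 7.74%. The fit was checked on simulated counts. Alternatives were DESeq2 1.42.0 size factors and its Wald test, library totals alone, no filter, only the groups compared, a replicate block, limma 3.58.1 on log2(FPKM + 1) and log2(FPKM + 0.1), and leaving out each library. Replicates of a group differed by more than sampling noise (chi-square per degree of freedom 3.06 to 6.50).

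The members and lists were chosen with earlier results of these data known. Genes named were the members, the 3 genes of each list that passed in the same direction with both hairpins and whose larger p was smallest, and the 3 genes most like DUSP1, DUSP6 and SPRY4 (prior count 2, mean log2 CPM of at least 2). One gene that the rule names is not reported here.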

Additional observations from a re-analysis of the deposited data

Results flagged for a closer look

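DUSP10 differed between the hairpins in a test of the difference itself. It was higher with shSNHG1#2 than with shSNHG1#1 by 0.32 on the log2 scale (SE 0.06, edgeR adjusted p = 0.00944), at 7.03 ± 0.176 FPKM with shSNHG1#2 and 5.59 ± 0.331 FPKM with shSNHG1#1 (SD, n = 3 each). Both lay below shNC, at 10.6 ± 0.0833 FPKM. On log2(FPKM + 1) in limma the difference was 0.28 (adjusted p = 0.0170), and without shSNHG1#1 replicate 1 it was 0.36 (adjusted p = 0.0122).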

How the results depend on the processing

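Of 540 alternative values of the 10 genes, 494 kept their direction and side of the threshold, 25 changed sign, 17 lost and 4 gained a call. Sign changes concerned differences near 0 that did not pass in edgeR's test as reported. SPRY2 with shSNHG1#1 was 0.00989 under library totals alone, 0.0164 on log2(FPKM + 1) with and without the filter, 0.0199 on log2(FPKM + 0.1), and -0.124 to 0.0328 when 1 library was left out, highest without shNC replicate 2. SPRY2 with shSNHG1#2 was 0.0418, 0.0516 and 0.0614 in the same settings, and -0.113 to 0.0445 when 1 library was left out, positive without shSNHG1#2 replicate 1 (0.0166) or shNC replicate 2. SPRED2 with shSNHG1#2 was -0.0248 and -0.0257 on the FPKM scales. Between the hairpins, SPRY1 was 0.00291 with DESeq2 size factors, 0.0164 under library totals alone, 0.00141 with no filter on low counts, 0.00286 with DESeq2's Wald test, 0.0677 and 0.0902 on the FPKM scales, and -0.0601 to 0.0859 when 1 library was left out, positive without shSNHG1#1 replicate 2 (0.0303) or shSNHG1#2 replicate 3. SPRY2 was -0.00573 to 0.0661 when 1 library was left out, negative without shSNHG1#1 replicate 3 or shSNHG1#2 replicate 3 (-0.00383). The cause was not tested.

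Between the hairpins, 586 features passed, against 970 with DESeq2's Wald test, 311 on log2(FPKM + 1) without the filter and 343 to 557 when 1 library was left out, lowest without shSNHG1#2 replicate 2. Among the 10 genes 1 passed, against 3 with DESeq2's Wald test and 1 to 2 when 1 library was left out (DUSP5 joined without shSNHG1#1 replicate 2, adjusted p = 0.0290). Library totals alone moved the share of calls that were higher to 61.1% from 50.6% with shSNHG1#2 against shNC, and to 77.0% from 65.0% between the hairpins, and gave SPRED2 a call with shSNHG1#2 (adjusted p = 0.0315). Fitting only the groups compared ended the SPRED2 call with shSNHG1#1 (adjusted p = 0.0580). With the replicate block, 8816 and 8448 features passed against shNC with shSNHG1#1 and shSNHG1#2 and 503 between the hairpins, and the counts of feedback genes called were 9, 8 and 1. The labels do not say that numbers pair the libraries, their deviations correlated by -0.0769 to 0.0775, and 3 of 9 libraries correlated best with their own number. Of 1836 alternative values of the other named genes, which leave out DUSP9 and the cell type markers, 1813 kept direction and side, 22 lost and 1 gained a call. Calls were lost by FOS (adjusted p up to 0.0666), FGFR2 (up to 0.124) and DUSP8 without shNC replicate 2 (0.0527), all with shSNHG1#1, and by FGFR1 with shSNHG1#2 (up to 0.418, under library totals alone), which gained one with shSNHG1#1 without its replicate 1 (0.0483). SPRY1 and SPRY2 had the fewest counts and the widest intervals of the 10 genes.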
